A study of Mus musculus with 2 samples.

Results

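Open chromatin was mapped by ATAC-seq, in which a transposase cuts accessible DNA and leaves sequencing adapters there, and the regions described here are the open promoters with few CpG dinucleotides. A region belonged to them when its strongest summit was no farther than 1 kb from the start site of a protein-coding gene and when the nearest start site had fewer than 30 CG within 1 kb on each side. Promoters with start sites of 2 genes on opposite strands within 1 kb of the summit were left out. Of 80938 open regions found in both libraries together, 1641 met the rule, at 1390 genes. They were set beside the 12462 open promoters with 30 or more CG (CpG-rich) and the 65549 regions whose summit lay farther than 1 kb from every start site (distal), and 1286 regions at bidirectional promoters entered neither class. The rule used position, CG count and the conservative list, which holds regions that recur between the libraries. It did not use signal or width within that list, but presence in each replicate is bound up with the list and motif content with the base composition that a CG limit brings.

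The cells were labelled as primary megakaryocyte progenitors, the precursors of platelet-releasing cells, and a further code in the sample descriptions, CFU-M, was left uninterpreted. They were of the C57BL/6J strain, taken from adult males at 5 to 6 weeks of age, with no treatment named. There was 1 group with 2 biological replicates of 50000 cells each, and both replicates cite the same donor entry in the labels. Whether they came from separate animals is not stated, so the spread between them may be technical. Each value below is therefore a measurement in these cells, and the only spread that can be given is the one between both libraries. The signal of a region is the score of its strongest summit as the authors deposited it, and how it compares between libraries is not stated. Depth per library is unknown.

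Most vertebrate promoters lie in CpG islands, stretches that are rich in CG, usually unmethylated and open in many cell types. Promoters outside the islands serve more genes that are used in 1 tissue or lineage, and textbooks describe them as depending more on a TATA box and on lineage transcription factors. In the blood system such factors include GATA proteins in megakaryocytes and erythroid cells, PU.1 and CEBP proteins in myeloid cells, and RUNX and ETS proteins in most lineages.

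The sequences of 10 such promoters are given first, because they show how few CG an open promoter can hold and where the letters of blood factor motifs stand in them. They are the stretches around the summits of strong promoters, 2 each, of the platelet, erythroid, granulocyte and mast cell lists, together with Nfe2 and Nlrp1b, which were added after their values were seen. Cd226 and Epb42 led the platelet and erythroid lists by signal and are not printed, the latter because its summit lies in an exon. Each runs 5′ to 3′ on the gene's strand, reaches up to 65 bases to each side of the summit, was shortened where it met an annotated exon (Gp1ba, Kel and Prg3), and is from GRCm38.p6, the assembly of mm10. Capitals mark the letters of 5 motifs. The GATA motif is A or T, then GATA, then A or G. The ETS motif is A or C followed by GGAAGT, the RUNX motif is TGTGGT and the CEBP motif is TTGCNNAA, all searched on both strands. The TATA motif is TATA, then A or T, then A, searched only on the gene's strand beginning 40 to 20 bases before the start site.
Gp1ba, platelet receptor for von Willebrand factor, chr11:70638993-70639121, plus strand: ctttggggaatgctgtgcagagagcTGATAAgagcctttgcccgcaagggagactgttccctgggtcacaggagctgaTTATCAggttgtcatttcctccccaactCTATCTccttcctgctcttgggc
Tbxas1, thromboxane synthase, chr6:38941155-38941285, plus strand: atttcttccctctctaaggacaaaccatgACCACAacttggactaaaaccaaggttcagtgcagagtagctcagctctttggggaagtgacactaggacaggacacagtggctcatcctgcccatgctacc
Kel, a red cell surface protein, chr6:41704340-41704425, minus strand: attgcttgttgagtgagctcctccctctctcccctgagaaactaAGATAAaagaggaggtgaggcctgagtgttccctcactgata
Car1, a red cell carbonic anhydrase, chr3:14808391-14808521, minus strand: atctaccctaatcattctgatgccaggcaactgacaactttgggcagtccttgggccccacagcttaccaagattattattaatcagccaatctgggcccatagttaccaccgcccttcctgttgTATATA
Mrgpra2a, a receptor of neutrophils, chr7:47452182-47452312, minus strand: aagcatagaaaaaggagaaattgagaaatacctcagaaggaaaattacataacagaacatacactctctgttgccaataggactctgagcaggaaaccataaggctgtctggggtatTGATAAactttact
Ms4a3, a membrane protein of granulocyte progenitors, chr19:11640874-11641004, minus strand: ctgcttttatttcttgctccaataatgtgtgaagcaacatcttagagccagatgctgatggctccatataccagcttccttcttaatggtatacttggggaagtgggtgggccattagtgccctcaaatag
Prg3, an eosinophil granule protein, chr2:84988112-84988214, plus strand: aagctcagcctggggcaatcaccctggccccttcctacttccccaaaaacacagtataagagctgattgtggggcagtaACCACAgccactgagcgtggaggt
Il1rl1, the receptor for interleukin 33, chr1:40429381-40429511, plus strand: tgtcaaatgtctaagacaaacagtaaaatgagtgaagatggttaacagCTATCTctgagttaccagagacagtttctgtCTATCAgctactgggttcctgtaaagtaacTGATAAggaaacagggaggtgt
Nfe2, a megakaryocyte transcription factor, chr15:103258490-103258620, minus strand: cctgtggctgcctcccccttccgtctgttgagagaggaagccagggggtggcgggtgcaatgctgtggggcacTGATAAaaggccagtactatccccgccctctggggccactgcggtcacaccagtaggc
Nlrp1b, an inflammasome sensor, chr11:71230824-71230954, minus strand: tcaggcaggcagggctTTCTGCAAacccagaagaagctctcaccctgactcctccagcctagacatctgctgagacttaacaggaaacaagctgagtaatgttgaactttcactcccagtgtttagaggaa

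Of these 10 stretches, 6 held no CG at all (Tbxas1, Kel, Mrgpra2a, Ms4a3, Il1rl1 and Nlrp1b), and Nfe2 had the most, with 4. They are not typical in this. Over all members 16.1% held no CG within 75 bp of the summit, a longer window than those printed. The share in distal regions was also 16.1%. The stretch of Gp1ba held 3 GATA matches, beginning 104, 51 and 23 bases before the start site. Il1rl1 also held 3, beginning 141, 110 and 80 bases before it. Kel, Mrgpra2a and Nfe2 held 1 each. Tbxas1 and Prg3 held a RUNX match on the opposite strand, and Nlrp1b a CEBP match. Car1 held a TATA match beginning 28 bases before the start site. Ms4a3 held none of the marked motifs. A match is a run of letters and not a measured binding site.

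Few genes without a CpG-rich start site had an open promoter. A gene is called open when a region's summit lay within 1 kb of 1 of its start sites and closed when no such region was listed. Among all 21853 genes 60.1% had an open promoter, 57.1% in replicate 1 and 56.3% in replicate 2. Of the 6009 genes whose start sites all had fewer than 30 CG, 744 were open, or 12.4% (95% Wilson interval 11.6 to 13.2%). The share was 10.6% in the list of replicate 1 and 9.95% in that of replicate 2. Genes with start sites of both kinds were open in 80.4% of cases and genes with CpG-rich start sites only in 77.5%. The gap to either class was over 60 points in both replicates' own lists, far more than the difference between the replicates' shares. Intervals here and below cover counting error only.

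Openness climbed with CG content in steps. Of genes whose richest start site had 0 to 9 CG, 3.68% were open, against 9.42% at 10 to 19 CG and 24.3% at 20 to 29 CG. Past the limit the share went on to 36.5% at 30 to 39 CG, 65.2% at 40 to 59 CG and 85.2% at 60 to 89 CG, and it was 86.1% at 90 or more. Neighbouring intervals did not overlap up to 60 to 89 CG, and both replicates' own lists gave the same order up to there. Olfactory and vomeronasal receptor genes made up much of the lowest steps: without them 6.51% of genes with 0 to 9 CG were open, and 15.6% of all genes with CpG-poor start sites only.

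The strength of an open promoter did not follow this order. Median signal was 9.72 at 0 to 9 CG (126 regions), 8.98 at 10 to 19 CG and 8.05 at 20 to 29 CG. It was 11.4 at 60 to 89 CG and 9.09 at 90 or more. Genes whose richest start site had 0 to 9 CG were thus rarely open. Regions whose nearest start site had 0 to 9 CG had a higher median signal than those with 20 to 29 CG. This held in the conservative list and in the lists of replicate 1 (9.69 against 8.23) and replicate 2 (9.995 against 8.69). The 2 groupings differ, since such a region can belong to a gene that also has a richer start site. The quartiles overlap widely throughout. At the limit itself the regions changed little: the 186 with 28 or 29 CG had a median signal of 8.24, and the 204 with 30 or 31 CG had 8.07.

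**Figure D1:**
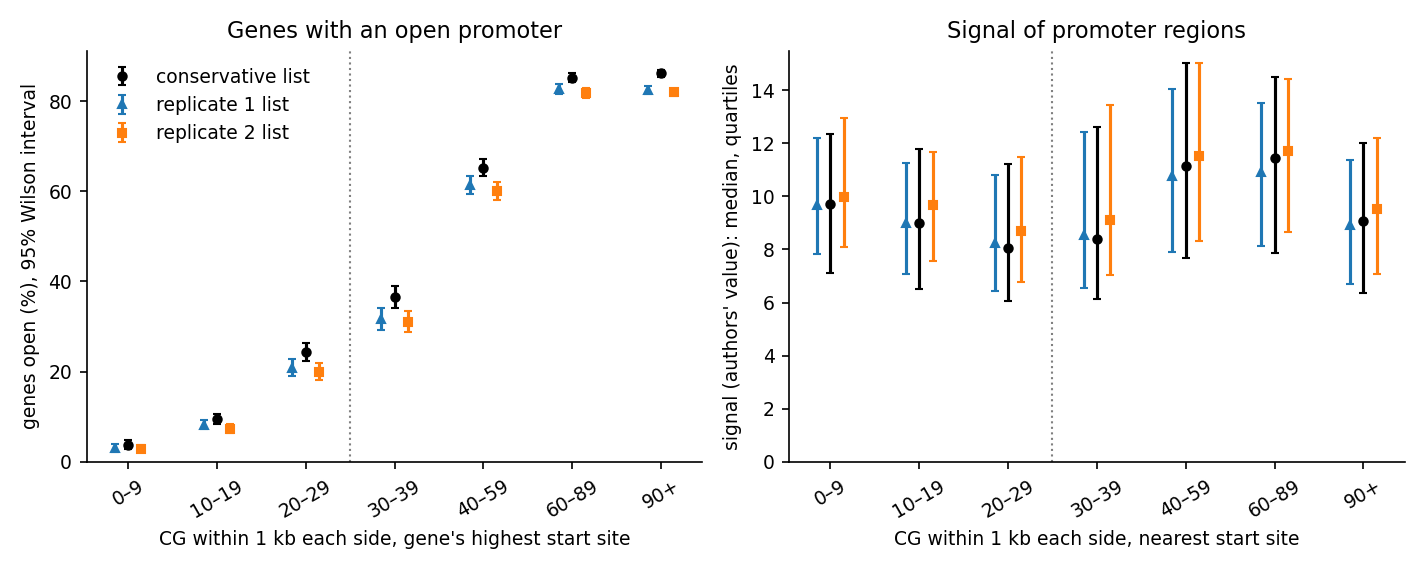
Left, share of genes with an open promoter (percent, bars give 95% Wilson intervals) by the CG count of the gene's richest start site. Right, signal of promoter regions (the authors' value, median with quartiles) by the CG count of the nearest start site, for the conservative list and each replicate's own list. The dotted line is the limit of 30 CG. Openness climbs from 3.68% to 86.1%, while median signal is lowest, at 8.05, in the step from 20 to 29 CG.

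Over all members, median signal was 8.42 (quartiles 6.21 and 11.6), against 9.91 at CpG-rich promoters and 8.74 at distal regions. The order held in the lists of replicate 1 (8.66, 9.70 and 8.91) and replicate 2 (9.17, 10.4 and 9.46). Members were narrower than CpG-rich promoters, with a median width of 484 bp against 792 bp, and somewhat wider than distal regions, at 419 bp. A single summit was listed in 64.1% of members, 35.1% of CpG-rich promoters and 74.6% of distal regions. In width and summits the CpG-poor promoters therefore stood nearer to distal regions than to other promoters. The median CG count of members was 21, and that of CpG-rich promoters 87. Members on the X chromosome were 3.17% of the total, the same share as among CpG-rich promoters, and none lay on the Y chromosome.

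Summits of members gathered just upstream of the start site, but less tightly than those of CpG-rich promoters. Within 150 bp of the start site lay 51.9% of member summits and 67.4% of CpG-rich ones. Beyond 500 bp lay 26.7% and 15.3%. Close to the start site members had the lower median signal, 9.10 against 11.2. Beyond 500 bp they had the higher one, 7.55 against 6.10. In the replicates' own lists the values beyond 500 bp were 7.97 against 6.45 and 8.34 against 6.96.

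**Figure D2:**
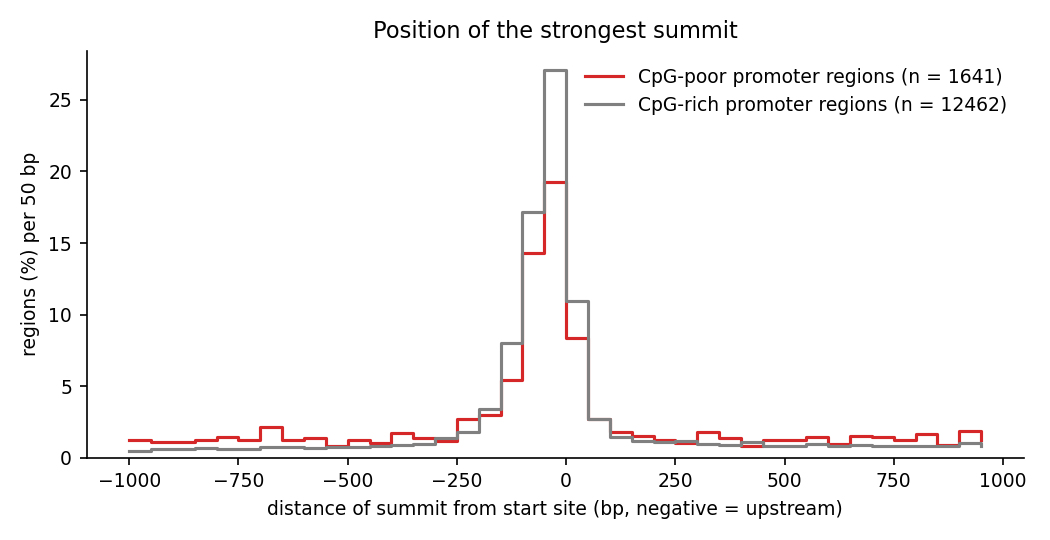
Distance of the strongest summit from the nearest start site in bp (negative is upstream) for 1641 CpG-poor and 12462 CpG-rich promoter regions, as percent of regions per 50 bp. Both peak just upstream of the start site, and the CpG-poor regions hold a larger share beyond 500 bp (26.7% against 15.3%).

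Members were listed less often in both replicates than CpG-rich promoters. Of all 80938 regions 63.9% recurred in each replicate's own list. The share was 66.6% for members (64.3 to 68.8%), 82.8% for CpG-rich promoters and 59.7% for distal regions. The share moved with signal. In the lowest quartile of signal over all promoter regions 33.7% of members and 45.2% of CpG-rich promoters recurred, and in the next quartile 63.8% and 86.1%. In the third they were 93.2% and 98.0%, and in the highest 100% and 99.8%, so that members recurred less often at like signal except in the highest quartile. There were 287 members, 17.5%, in neither replicate's own list. The highest of these were Gbp4, an interferon-induced GTPase (9.34), Pou2f3, a POU domain factor (9.07), and Prf1, the perforin of cytotoxic lymphocytes (9.07). With the more inclusive pseudoreplicated list of each replicate, 97.3% of members recurred.

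Where a member was in both lists, its signal differed little between them. Across the 1093 such members the log2 ratio of replicate 2 to replicate 1 had an SD of 0.18, and across CpG-rich promoters 0.16. After centring on the median ratio of all regions, 9 members differed by more than 0.5. The widest gap in each direction was at Vwa5a, with signals of 10.4 in replicate 1 and 5.67 in replicate 2, and at Smim6, with 6.70 and 10.5. These genes were picked after their values were seen. Spearman's rho between the replicates across members was 0.928, and regions are not independent replicates.

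**Figure D3:**
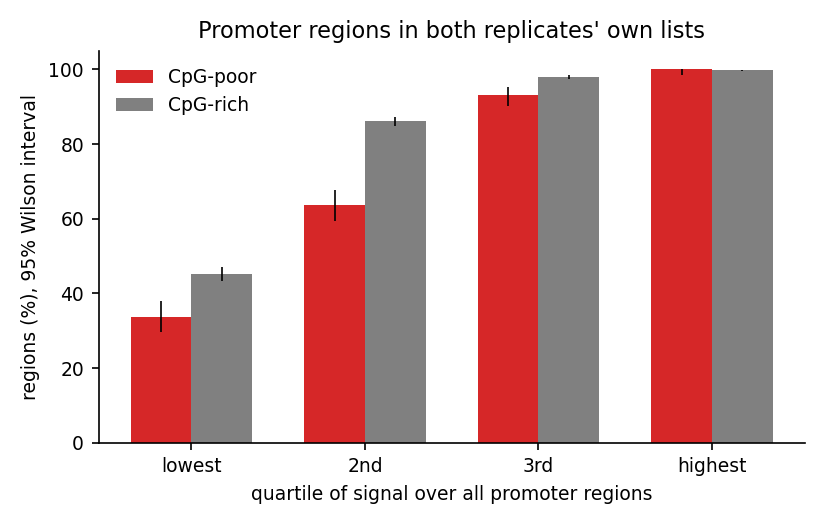
Share of promoter regions listed in both replicates' own lists (percent, bars from 0 with 95% Wilson intervals), by quartile of signal over all promoter regions, for CpG-poor and CpG-rich promoters. CpG-poor promoters recur less often in the lower quartiles (33.7% against 45.2% in the lowest) and both reach about the full share in the highest.

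The strongest members were not genes of the megakaryocyte lineage. Signal was highest at Tph2, which makes serotonin in neurons, with 23.8 in replicate 1 and 25.2 in replicate 2 (24.5 ± 1.03, SD, n = 2). Zfp97, a zinc finger gene, followed with 23.7 and 23.5 (23.6 ± 0.138, SD, n = 2). Gm5141 had 21.6 and 24.1, 6720489N17Rik 21.996 and 23.4, and Zc4h2, an X-linked zinc finger gene, 22.1 and 21.5. These 5 ranged from 24.0 to 26.9 in the conservative list, against a median of 8.42.

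The next 7 lay between 21.1 and 22.9 in that list. They were Gm20594, Platr25, Ect2l, Glipr1l1, the zinc finger gene Zfp738, Trim30d of the tripartite motif family, and Golph3l, a Golgi protein. An NFY match stood within 75 bp of the summit in 6 of the 12 (Zfp97, Gm5141, 6720489N17Rik, Platr25, Trim30d and Golph3l), and in 19.6% of all members. None of the 12 had a GATA, PU.1 or CEBP match there. Of those with an NFY match, Gm5141 and Platr25 share sequence around the summit, as given below. Across the 394 zinc finger genes with a Zfp symbol, 46 had CpG-poor start sites only. Of these 17 were open, beside 12.4% of all CpG-poor genes. The best regions of the 25 member genes in this family had a median signal of 14.96, against 9.07 over all member genes.

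**Figure D4:**
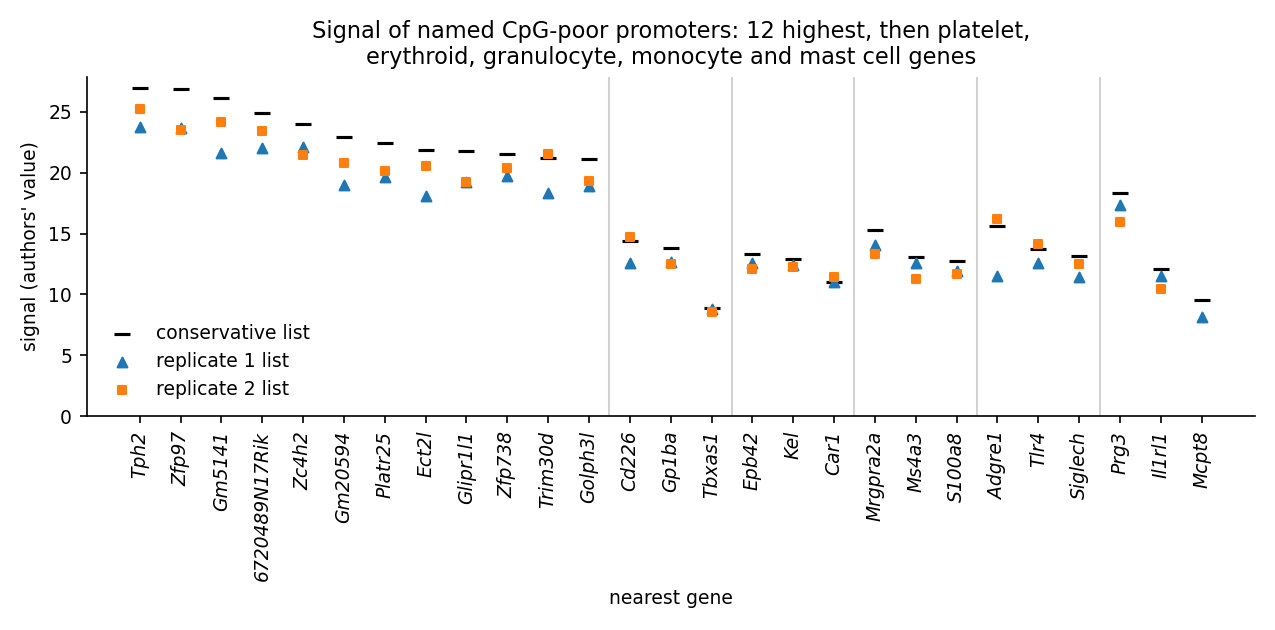
Signal (the authors' value) of named CpG-poor promoters in the conservative list and in each replicate's own list: the 12 highest, then the 3 highest of the platelet, erythroid, granulocyte, monocyte and mast cell lists, separated by vertical lines. The 12 highest lie between 21.1 and 26.9 and the lineage genes between 8.89 and 18.3 in the conservative list; Mcpt8 has no point in replicate 2.

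Platelet and megakaryocyte genes had 20 members at 15 genes. Of the 20 listed genes with CpG-poor start sites only, 12 were open, beside 12.4% of all such genes. Among surface receptors, Gp1ba had signals of 12.7 in replicate 1 and 12.5 in replicate 2 (12.6 ± 0.114, SD, n = 2) with 17 CG. Cd226, an adhesion receptor of platelets and lymphocytes, had 2 members. The one 217 bp upstream of its start site, with 5 CG, had signals of 12.5 and 14.7, and the other 11.4 and 12.1. Gp5, of the same receptor complex as Gp1ba, had 6.20 and 6.33. Gp9, the next subunit of that complex, was in neither replicate's own list and had 5.29 in the conservative list, 781 bp downstream of its start site.

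Receptors for soluble agonists had low signals and were each found in 1 replicate's list only. P2ry12, the ADP receptor, had 6.30 in replicate 2, Tbxa2r, the thromboxane receptor, had 7.31 in replicate 2, and the thrombin receptor gene F2rl2 had 5.12 in replicate 1. Thromboxane synthase, Tbxas1, had 8.81 and 8.52. The signalling proteins Plek and Fermt3 had 7.76 and 8.05, and 7.14 and 7.38. Coagulation factor F5 had 4.67 and 5.69, and F13a1 had 7.25 in the conservative list and was in neither replicate's own. The CpG-poor genes of the list without an open promoter included Clec1b, Gp6, Mmrn1, Ppbp, Selp, Tubb1 and Vwf.

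As a check of the label, 7 of 13 defining megakaryocyte and platelet markers had an open promoter of any CG content, no larger a share than the 60.1% over all genes, with 4 in the list of replicate 1 and 5 in that of replicate 2. Vwf, Gp6, Selp and Clec1b were closed in all 3 lists. The CpG-rich markers Pf4 and Itga2b were open in all 3. Of the defining markers of other cell types, 5 of 7 erythroid, 6 of 7 granulocyte, 2 of 4 monocyte and 1 of 4 mast cell markers were open, and 0 of 3 B cell and 0 of 4 T and NK cell markers. An open promoter is not a measure of transcription, and the part of other cells in the values below was not tested.

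Among megakaryocyte transcription regulators all genes but Gfi1b had a CpG-rich start site, and 4 genes, Gfi1b among them, had members. Nfe2 had its strongest 152 bp upstream of a start site with 22 CG, with signals of 9.67 and 10.5 (10.1 ± 0.577, SD, n = 2). Lmo2, a partner of GATA and TAL proteins, had 8.55 and 8.37. Spi1, which encodes PU.1, had 7.03 and 8.28, and Gfi1b, a repressor of megakaryocytes and erythroid cells, had 5.68 and 5.52.

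Erythroid genes had the highest open share of the blood lists with more than 1 CpG-poor gene. Of the 12 listed genes with CpG-poor start sites only, 10 were open, beside 12.4% of all such genes. Alas2 and Slc4a1 were closed. Membrane and skeleton genes led: Epb42, a protein of the red cell skeleton, had 12.6 and 12.1 (12.4 ± 0.3715, SD, n = 2). Kel had 12.4 and 12.3 with 8 CG. Car1 had 11.0 and 11.4. Rhag, an ammonia channel of the red cell, had 7.02 and 8.11 with only 4 CG.

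The globin genes differed among themselves. Hbb-bs had 7.82 and 7.14, and Hba-a2 had 8.32 and 8.67, while Hbb-bt was in neither replicate's own list. Globin genes stand in related copies, and whether reads at these promoters were assigned to the right copy was not tested. Hbb-bs, Hbb-bt and Hba-a2 were not among the members that share sequence with another member, described below. Hba-a1 is CpG-rich and so was not part of that comparison. Of the 10 erythroid member genes, the strongest region held a GATA match in 7, among them Epb42, Kel, Hemgn, Rhag, Ermap and Hbb-bt. Over all members that share was 29.9%. This difference was read after the values were seen and is a description of 10 genes.

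Granulocyte genes had 12 members at 12 genes, and 10 of 18 CpG-poor genes were open, beside 12.4% of all CpG-poor genes. Mrgpra2a, with 3 CG, had 14.1 and 13.3 (13.7 ± 0.509, SD, n = 2), and Ms4a3 had 12.6 and 11.3. The calprotectin genes S100a8 and S100a9 had 11.96 and 11.7, and 10.9 and 10.5. Among granule and secreted proteins, Mmp8, a collagenase, had 10.5 and 10.6, Ngp 5.43 and 6.07, and Mpo, the myeloperoxidase gene, 5.90 and 5.58. Ltf, which encodes lactoferrin, was in neither replicate's own list. Closed genes included Fpr1, Fpr2, Cxcr2, Ly6g and Lcn2.

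CpG-poor monocyte and macrophage genes were open in 12 of 19 cases, beside 12.4% of all CpG-poor genes. Adgre1, which encodes the F4/80 antigen, had a wide spread, with 11.5 in replicate 1 and 16.2 in replicate 2. Tlr4, the endotoxin receptor, had 12.6 and 14.1, Siglech, a lectin of plasmacytoid dendritic cells, 11.4 and 12.5, and Cx3cr1, the fractalkine receptor, 11.2 and 11.7. Csf1r, Msr1, Marco and the complement gene C1qb were closed. C1qc, of the same complex, was closed in the conservative list and open in both replicates' own lists.

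CpG-poor mast cell, basophil and eosinophil genes were open in 6 of 16 cases, beside 12.4% of all CpG-poor genes. Prg3 was at the head of them. It had 17.3 and 15.9 (16.6 ± 0.985, SD, n = 2). Il1rl1 had 11.5 and 10.5, and Mcpt8, a basophil protease, had 8.17 in replicate 1 and no region in the list of replicate 2. Prg2, a major granule protein of eosinophils, Epx, Ms4a2 and Fcer1a were closed.

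Some lymphoid genes had open CpG-poor promoters of high signal. For B cell genes 4 of 14 were open, or 28.6%, beside 12.4% of all CpG-poor genes. Cr2, the complement receptor of B cells, had 18.9 and 18.3 (18.6 ± 0.386, SD, n = 2), and Bank1, an adaptor of the B cell receptor, had 16.7 and 17.4. Cd22, Ms4a1 and Rag2 were closed. For T and NK cell genes 5 of 11 were open, or 45.5%. Klrd1, which encodes CD94, had 14.96 and 16.9, Il7r, the interleukin 7 receptor, 13.7 and 14.4, and Cd28, a costimulatory receptor, 13.6 and 12.2. These 3 had a RUNX match at the summit, which 22.7% of all members had, and Cr2 and Bank1 had none. Cd4, Cd3g, Gzma and Ncr1 were closed.

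CpG-poor cytokine and chemokine receptor genes were open in 12 of 17 cases, beside 12.4% of all CpG-poor genes. The shared beta chains Csf2rb2 and Csf2rb had 8.13 and 9.46, and 6.75 and 7.37, each with a PU.1 and a GATA match at the summit. Il18rap, an interleukin 18 receptor chain, had 12.1 in replicate 1 and 8.87 in replicate 2. Il1r1 had 10.8 and 10.4, and Il2rg, the common gamma chain, 7.89 and 9.09. Csf1r, Ccr3 and Cxcr2 were among those closed.

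Lists of tissues outside the blood were short, and their shares are read beside the 12.4% over all CpG-poor genes. Of CpG-poor liver genes 1 of 14 was open (F9, the coagulation factor IX gene, with 6.76 in replicate 2 only), of keratin and skin genes 0 of 10, of germ cell genes 0 of 4, and of muscle genes 1 of 4. Alb, Ttr, Apoa1 and the fibrinogen genes Fga, Fgb and Fgg were closed.

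Receptor families differed widely in how many of their CpG-poor genes were open, beside 12.4% of all such genes. All 7 CpG-poor Toll-like receptor genes were open, 5 of 6 of the TREM family, 4 of 6 Siglecs, 4 of 7 SLAM family genes and 11 of 24 C-type lectins. Lower counts were found for Ly49 and related Klr receptors (7 of 24), PIR and LILR receptors (2 of 6), chemokines (6 of 23) and the MS4A family (4 of 18). Interferon-induced GTPases and Ifi genes were open in 22 of 34 cases, with Ifi27 highest (14.5 and 14.1). Of the chemosensory families, 28 of 1090 olfactory receptor genes and 0 of 329 vomeronasal receptor genes were open. The olfactory regions were not weak: the best regions of the 28 member genes had a median signal of 11.7, and Olfr646 had 19.3 and 18.8, with its summit 776 bp upstream of the start site. No gene for a cytosolic ribosomal protein had only CpG-poor start sites, and none had a member.

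Some of these families stand in near-identical copies. In 43 members, 2.62%, at least 50% of the 31-base words around the summit also stood at another member, against 0.465% of CpG-rich promoters. Their median signal was 12.8, against 8.38 in the other members. Gm5141 and Platr25 shared 90.1% of these words, Trim30d and Trim30a 72.7%, Lilrb4a and Lilr4b 61.2%, and Mrgpra2a and Mrgpra2b 98.3%. How reads with several matches were handled is not given in the sources used here, so the values of these copies are uncertain.

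For the GATA and RUNX motifs, member summits were close to distal regions and above CpG-rich promoters. Within 75 bp of the summit, a GATA match stood in 29.9% of members (27.7 to 32.1%), 9.53% of CpG-rich promoters and 29.8% of distal regions. The difference from CpG-rich promoters was 20.3 points (Newcombe interval 18.1 to 22.6), and 20.9 and 21.1 points in the replicates' own lists. That from distal regions was 0.0226 points (-2.17 to 2.31). A RUNX match stood in 22.7%, 7.24% and 22.4%. Much of the gap to CpG-rich promoters moved with base composition, the median GC content of the windows being 51.7% and 64.9%. Among windows with 45 to 55% GC the GATA difference was 5.91 points (2.38 to 9.49) and the RUNX difference 8.97 points (5.92 to 12.1).

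Several motifs exceeded both other classes, the ETS motif and its PU.1 form among them. The PU.1 motif GAGGAAGT, a longer form of the ETS motif and so counted in it as well, stood in 10.1% of members, 2.29% of CpG-rich promoters and 7.56% of distal regions. Its difference was 7.82 points from CpG-rich promoters, 6.16 points at like GC content (4.07 to 8.45) and 2.56 points from distal regions (1.17 to 4.12). For the ETS motif the shares were 22.8%, 14.2% and 17.7%. Its difference from CpG-rich promoters was 8.60 points, of which windows with the PU.1 form made up 7.82. The ETS form with CG, CCGGAAGT, had another order, with 0.670%, 5.22% and 0.491%, and the CG limit bears on it. The CEBP motif stood in 13.2%, 4.25% and 11.0%, and the difference from CpG-rich promoters was 8.97 points, or 3.27 points at like GC content (0.763 to 5.91). The interferon regulatory factor motif stood in 3.66%, 1.08% and 2.26%, and at like GC content its difference of 1.02 points had an interval that held 0 (-0.256 to 2.502). The E-box CAGCTG stood in 14.99%, 8.53% and 12.4%. The AP-1 motif (TGA, then C or G, then TCA) did not exceed distal regions, with 5.97%, 2.36% and 6.36%. Its difference from distal regions was -0.388 points (-1.45 to 0.878). At least 1 of the GATA, PU.1, RUNX and CEBP motifs stood in 58.4% of members, 20.8% of CpG-rich promoters and 56.1% of distal regions.

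Other motifs had other orders. The NFY letters CCAAT stood in 19.6% of members and 27.0% of CpG-rich promoters, a difference of -7.39 points (-9.40 to -5.26), and in 16.4% of distal regions. The CACCC motif of KLF factors (CC, then A or C, then CACCC) stood in 9.26% of members, 9.34% of CpG-rich promoters and 6.47% of distal regions. The CTCF motif stood in 3.84% of members and 7.77% of distal regions, a difference of -3.93 points (-4.78 to -2.87). Flanks of members, windows centred 1 kb to either side and free of open regions, gave a background of 24.98% for GATA, 12.2% for RUNX, 4.51% for ETS, 0.980% for PU.1 and 6.05% for CEBP. Summits exceeded them by 4.88 points for GATA (2.17 to 7.62) and by 18.3 points for ETS (16.1 to 20.5). For NFY the flanks had 19.3%. The difference of summits from them was 0.247 points, with an interval that held 0 (-2.125 to 2.683). Flank windows had a lower median GC content, 45.03%.

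**Figure D5:**
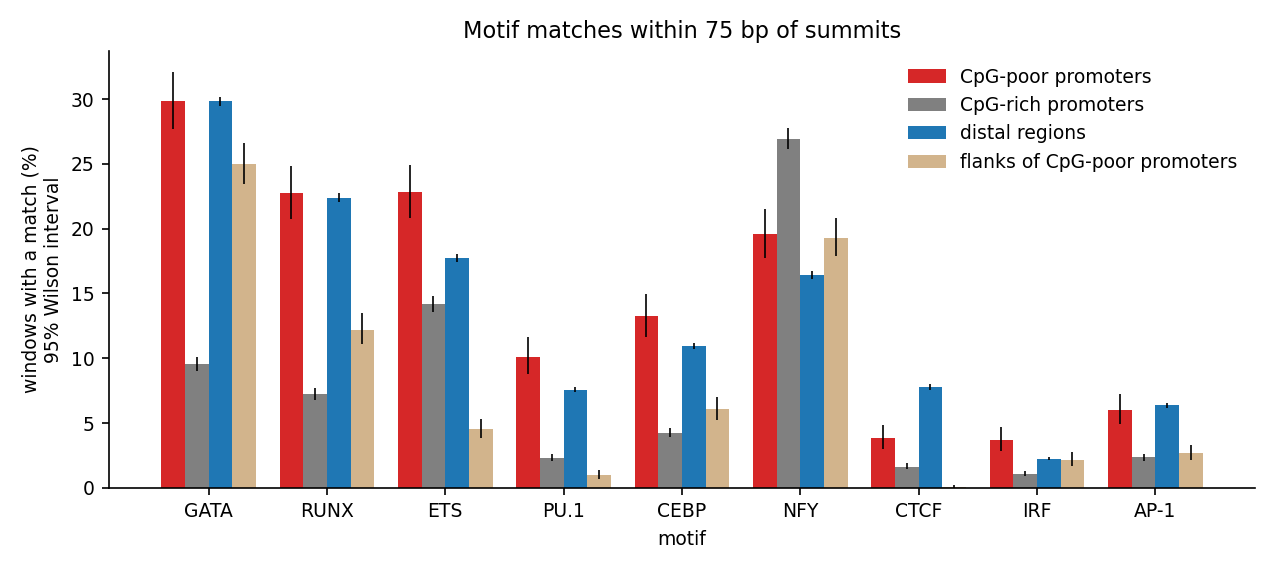
Share of windows of 75 bp each side with a motif match (percent, bars from 0 with 95% Wilson intervals) at CpG-poor promoters, CpG-rich promoters, distal regions and the flanks of CpG-poor promoters. CpG-poor promoters match distal regions for GATA (29.9% and 29.8%) and RUNX, exceed them for PU.1 (10.1% and 7.56%), and fall below CpG-rich promoters for NFY (19.6% and 27.0%).

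Strong and weak members differed in few of the 24 motifs compared, and the intervals make no allowance for that number. Members that share sequence were each counted. In the highest quartile of members by signal, 103 of 412 had an NFY match, and in the lowest quartile 16.3%, a difference of 8.70 points (3.17 to 14.2). For GATA the shares were 25.2% and 32.4%, a difference of -7.12 points (-13.2 to -0.929). For CTCF they were 5.34% and 1.95%, a difference of 3.39 points (0.823 to 6.18). For all other motifs, PU.1, RUNX, ETS and CEBP among them, the interval of this difference held 0.

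A TATA match before the start site was rare. It stood at 36 members, 2.19% (1.59 to 3.02%), the same share as over all start sites, 2.19% (2.07 to 2.31%). At CpG-rich open promoters it stood in 1.18% of cases, a difference of 1.01 points (0.375 to 1.86). CpG-poor start sites that were closed had it more often, in 4.98% of cases, and the difference of members from them was -2.79 points (-3.49 to -1.89). Neither kind of gene nor GC content was matched in this difference. Members at genes with CpG-poor start sites only had it in 3.79% of cases, and the other members in 0.503%. Members with a TATA match included Tph2, Rgs1, a regulator of G protein signalling (signal 18.5), Car1 and S100a4 (9.70).

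Members came from genes of 2 kinds. At 727 genes all start sites were CpG-poor, and these had 845 members. At the other 663 genes a CpG-rich start site existed as well, and these had 796. The first kind had the higher signal, with a median of 9.09 against 7.66, and 9.39 against 8.17 and 9.76 against 8.66 in the replicates. Its summits lay within 150 bp of the start site in 59.5% of cases against 43.7%, and 69.3% against 63.7% of its regions recurred in both replicates. It had an NFY match more often, 23.7% against 15.2% (difference 8.47 points, 4.65 to 12.2), a TATA match more often, 3.79% against 0.503% (difference 3.28 points, 1.94 to 4.83), and a GATA match less often, 26.6% against 33.3% (difference -6.66 points, -11.1 to -2.23). PU.1, RUNX and CEBP shares differed by amounts whose intervals held 0. GC content was not matched in these differences.

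At 649 of the 1390 member genes, 46.7%, a CpG-rich start site of the same gene lay more than 1 kb from the member's. Such a site was open at 535 of these genes, 82.4%. This is near the general share: of all genes with start sites of both kinds, 80.4% were open at any start site. The 3 members with the highest signal at the 535 genes were named after their values were seen. They were at Mctp1 (20.3), 195139 bp from the nearest open CpG-rich start site, Ndel1 (18.8), 18723 bp away, and Nfyc (18.6), 9972 bp away. Most member genes had a single member (1176), 183 had 2, and 31 had 3 or more, with Adgrg1 holding 5.

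Open CpG-poor genes stood in neighbourhoods with more distal regions than closed ones. Within 50 kb of their start sites lay on average 5.26 distal regions, against 1.97 at closed CpG-poor genes, and no distal region lay there for 6.59% against 50.8% of genes. In the list of replicate 1 the averages were 3.98 and 1.502, and in that of replicate 2 3.76 and 1.49. The median number of neighbouring genes in the window was 2 for open and for closed CpG-poor genes. Without the olfactory and vomeronasal receptor genes it was 2 for open and 1 for closed ones. Open genes with CpG-rich start sites only had 5.27 and closed ones 3.92. Without the receptor genes the difference at CpG-poor genes was 2.91 regions, against 3.29 with them. Among member genes Ccr1, a chemokine receptor, had the most, with 22, followed by Il21r with 19 and by Btn2a2, Cd69, an early activation antigen, and Lcp2, an adaptor of platelets and T cells, with 18 each. The 12 strongest members had 0 to 4 distal regions each.

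The fewest CG stood at Crisp3 and 4931408C20Rik, with 2 each, and at Nlrp1b and Mrgpra2a, with 3 each. Nlrp1b had signals of 17.0 and 15.7 (16.4 ± 0.950, SD, n = 2), more than the upper quartile of CpG-rich promoters in each replicate, and Crisp3 had 8.70 in replicate 1 only.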

How the data were processed

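ATAC-seq was made of 2 libraries of megakaryocyte progenitors. The authors deposited peak lists on mm10 in narrowPeak form, per the file headers and labels, in which column 7 is the signal of each summit. Which aligner and peak caller were run, and how duplicates and the transposase offset were treated, is not given in the sources used here. Summit positions and signal may depend on them. Summits sharing an interval were merged, and the strongest gave a region's signal and position. Start sites came from GENCODE M21, with 54361 start sites of 21853 genes, and CG counts from GRCm38.p6. A region was present in a replicate when it and a region of that replicate's IDR-thresholded list overlapped by 50% of either one or more. A replicate's value is the signal of the covering region, which can be the same one for 2 members. A gene was called open when a summit of any class lay within 1 kb of 1 of its start sites. Shares have Wilson intervals and differences of shares Newcombe intervals, at 95%. With 1 group of 2 libraries no test between conditions is possible, and no p-value is given.

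The members, the 15 gene lists, the 25 families and the 24 motifs were chosen with earlier results of these data known. Of 359 list entries, 3 genes (Clec7a, Iglc1 and Tf) had no start site in the annotation used. The rule named the 12 strongest members present in both replicates, the 3 strongest of each list, the strongest of each family, the 6 with most distal regions, the 4 with fewest CG and the 3 strongest found in neither replicate; other list genes were named by role. Functions were tested on simulated regions with known classes, motifs and overlaps. Python 3 with numpy, pandas, scipy and statsmodels was used. Some genes of the lists are not reported here by name.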

Additional observations from a re-analysis of the deposited data

How the results depend on the processing

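No result reversed direction under the alternatives run. Alternatives on windows of 45 to 55% GC, receptor genes, summits within 150 bp and shared sequence were chosen after seeing the data. The number of members was 678 at a limit of 20 CG, 2536 at 40 CG, 2469 with summits within 2 kb and 2634 in the replicated list. The log2 ratio of median signal to CpG-rich promoters, -0.24, was -0.11 at 20 CG, -0.25 at 40 CG, -0.26 within 0.5 kb, -0.14 within 2 kb, -0.22 in the IDR-thresholded list, -0.37 in the replicated list, -0.26 with bidirectional promoters, -0.30 within 150 bp, and -0.18 to -0.16 leaving out 1 replicate. The GATA difference from CpG-rich promoters, 20.3 points, was 21.3 at 20 CG, 18.8 at 40 CG, 20.5 within 0.5 kb, 17.6 within 2 kb, 20.5 in the IDR-thresholded list, 19.4 in the replicated list, 16.1 and 23.4 in windows of 50 and 100 bp, 5.91 in windows of 45 to 55% GC, 20.6 without members sharing sequence, and 20.9 to 21.1 leaving out 1 replicate. The TATA difference, 1.01 points, was 1.58 at 20 CG, 0.918 at 40 CG, 1.07 within 0.5 kb, 1.20 within 2 kb, 1.09 in the IDR-thresholded list, 1.69 in the replicated list, 1.35 with matches beginning 50 to 15 bases before, and 0.914 to 0.992 leaving out 1 replicate. The open share of CpG-poor genes, 12.4%, was 7.27% at 20 CG, 17.1% at 40 CG, 10.7% within 0.5 kb, 16.4% within 2 kb, 17.9% in the replicated list, 15.6% without receptor genes, and 9.95 to 10.6% leaving out 1 replicate. The difference in distal regions, 3.29, was 3.54 at 20 CG, 2.81 at 40 CG, 3.55 within 0.5 kb, 3.06 within 2 kb, 5.27 in the replicated list, 1.49 and 5.90 in windows of 20 and 100 kb, 2.91 without receptor genes, and 2.28 to 2.48 leaving out 1 replicate. Presence in both replicates, 66.6%, was 70.6% within 0.5 kb, 63.7% within 2 kb, 97.3% with pseudoreplicated lists, and 33.7%, 63.8%, 93.2% and 100% by quartile of signal. Flanks 2 kb away moved no motif difference outside its interval. The cause of these changes was not tested. No paired analysis was possible because there is 1 group. Depth is unknown, so a promoter that is not listed is not shown to be closed.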
